A study of Homo sapiens with 12 samples.

Results

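Expression of 5 imprinted genes, PEG10, SGCE, MEST, PHLDA2 and GRB10, was examined in 2 triple-negative breast cancer cell lines with and without knockout (KO) of SMARCA4. The genes were taken by symbol, and all 5 were found among the 11529 genes analysed. PEG10 was picked because its level was far apart between KO and control cells of MDA-MB-468, so values in that comparison are given as a description, without a test. SGCE starts beside PEG10, and MEST, PHLDA2 and GRB10 are imprinted genes at other places in the genome. They are described in the same way there.

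MDA-MB-468 is a basal-like line with epithelial features and MDA-MB-231 a line with mesenchymal features. Each line was sequenced as 3 control samples, whose genotype is given as wild type, and 3 SMARCA4 KO samples. SMARCA4 is the ATPase of the SWI/SNF complex, which moves nucleosomes. KO cells had received a lentiCRISPR-v2 vector carrying Cas9 and an sgRNA against SMARCA4 and were selected with puromycin, and they were used as pools rather than as single clones. In the study's protein blots, control cells carried a CRISPR/Cas9 vector with a nontargeting guide, but whether this holds for the sequenced controls is not given in the sources used here. Replicates are numbered, but nothing says that they came from separate cultures, so the p-values measure only the spread between these samples.

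An imprinted gene is expressed mainly from the copy inherited from one parent, and the silent copy usually carries DNA methylation at a control region. PEG10, SGCE and MEST are expressed from the paternal copy and PHLDA2 from the maternal copy, whereas the active copy of GRB10 depends on the isoform and tissue. Many imprinted genes act in growth of the fetus and placenta, and several are expressed again or lose their single-copy expression in tumors. The values here are sums over both copies, and the share of each copy was not measured.

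On chromosome 7 (GRCh37, whose coordinates are those of hg19), PEG10 runs from 94285637 to 94299007 on the plus strand, and SGCE from 94153516 to 94285884 on the minus strand. The main transcripts of these genes (MANE Select) start 192 bases apart and point away from each other, and the gene spans overlap by 248 bp. MEST lies from 130126012 to 130146306 on the plus strand of the same chromosome, 35.8 Mb from PEG10, and its end overlaps COPG2 by 228 bp. GRB10 lies from 50657760 to 50861159 on the minus strand of chromosome 7, 43.4 Mb from PEG10. PHLDA2 lies on chromosome 11, from 2949503 to 2950650 on the minus strand. The libraries were made with a stranded kit, but it is not stated whether strand was used in counting, and without it reads in the 2 overlaps cannot be assigned to a gene.

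Of the 5 genes, 2 matched RefSeq promoter sequences, MEST and GRB10. Both are shown for that reason, and a link between these sequences and the levels of the genes was not tested. Each sequence is the 250 bases before the start of the MANE Select transcript (GRCh38.p14), 5′ to 3′ on the strand of the gene, with each CG, the dinucleotide that carries DNA methylation, in capitals. The window of MEST is chr7:130491835-130492084 on the plus strand and that of GRB10 is chr7:50782897-50783146 on the minus strand.
MEST: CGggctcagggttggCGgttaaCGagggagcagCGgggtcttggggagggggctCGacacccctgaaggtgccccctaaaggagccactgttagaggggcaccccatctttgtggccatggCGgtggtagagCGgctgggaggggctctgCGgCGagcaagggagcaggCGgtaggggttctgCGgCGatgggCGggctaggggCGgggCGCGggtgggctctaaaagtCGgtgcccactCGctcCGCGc
GRB10: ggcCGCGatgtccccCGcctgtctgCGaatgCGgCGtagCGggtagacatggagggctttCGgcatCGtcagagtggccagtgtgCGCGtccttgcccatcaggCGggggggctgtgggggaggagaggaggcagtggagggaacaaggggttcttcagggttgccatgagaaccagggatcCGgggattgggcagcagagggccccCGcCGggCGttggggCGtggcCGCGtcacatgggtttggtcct
The MEST window held 20 CG and a GC content of 69.6%, and the GRB10 window 19 CG and a GC content of 67.6%. Over all 35116 RefSeq promoters the median was 11 CG, and 32.4% and 34.6% of them held at least as many CG as these windows of MEST and GRB10. Of the other starts of GRB10, the 2 upstream had 37 and 40 CG in the window before them, and the 2 downstream had 2 and 3. Per-gene values add up the transcripts from all these starts, and methylation was not measured.

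The values are log2(FPKM + 1), where FPKM is the number of fragments scaled to transcript length and to the mapped fragments of the sample. Only genes whose FPKM varied over the 12 samples had been kept, and read depth is unknown. SMARCA4, the targeted gene, had a mean log2 value of 6.64 in control and 5.48 in KO cells of MDA-MB-468, and of 6.12 and 4.55 in those of MDA-MB-231. Epithelial markers were higher in control MDA-MB-468 than in control MDA-MB-231 cells for 8 of 8 genes and mesenchymal markers lower for 5 of 5 analysed. In KO against control MDA-MB-231 cells 8 of 8 epithelial markers were higher by sign (median log2 difference 0.30), of which CDH1, encoding E-cadherin, was called (0.54, limma adjusted p = 0.0442, a call lost with a pseudocount of 0.1, under the replicate block and without any 1 of the 6 samples), and 4 of 5 mesenchymal markers were lower by sign (median -0.28). Limma called 0 of those 5, with an unadjusted p under 0.05 for 3 and an adjusted p under 0.05 for 1. CDH1 was near the floor in this line, at log2 values of 0.16 to 0.50 in control and 0.70 to 1.01 in KO samples. In MDA-MB-468 cells limma called 0 of the 8 and 0 of the 5, with an unadjusted p under 0.05 for 2 and for 1, and medians of 0.14 and 0.11. An adjusted p under 0.05, with a difference below the fold limit, was reached by 1 of the 8 and 0 of the 5. The summed FPKM of the epithelial markers ran from 1001 to 1535 in control and from 1544 to 1708 in KO MDA-MB-231 cells, and from 6783 to 7128 and from 7654 to 8419 in those of the other line. That of the mesenchymal markers ran from 1927 to 2152 and from 1548 to 1691, and from 35.8 to 38.4 and from 54.7 to 87.8. In MDA-MB-468 cells the log2 differences were 1.44 for CAV1, 0.42 for VIM, 0.11 for ZEB1, 0.04 for AXL and -0.13 for FN1. CAV1 alone was over the fold limit there (limma adjusted p = 0.062), so the sum does not describe the 5 as a set. Of 14 markers of leukocytes, fibroblasts and endothelium, CD14 alone was among the genes analysed, with a log2 difference of 1.19 between KO and control MDA-MB-231 cells, of -0.57 in MDA-MB-468 cells, and of 4.56 between the control lines. The part of all these markers in the results was not tested.

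PEG10 encodes gag-like and pol-like proteins, derived from a retrotransposon, that are required for the placenta. Its log2 value in MDA-MB-468 was 3.87, 4.46 and 4.35 in the control samples and 5.66, 6.03 and 6.09 in the KO samples. All KO samples lay above all control samples, and the mean FPKM was 18.0 in control and 60.3 in KO cells, or 335% of control. The log2 difference was 1.70 (SE 0.19), the 9th highest of the 11529 genes. PEG10 was chosen on that difference, which is therefore a description. In MDA-MB-231 cells the log2 value was 4.45, 4.46 and 4.64 in control and 4.38, 4.24 and 4.13 in KO samples, with all KO samples below the controls. The log2 difference there was -0.27 (SE 0.09), with a limma adjusted p of 0.108 over all genes, so it did not pass the test.

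SGCE encodes epsilon-sarcoglycan, a membrane protein of the dystrophin-associated complex that is mutated in myoclonus-dystonia. Its log2 value in MDA-MB-468 was 3.07, 3.28 and 3.36 in control and 4.11, 4.19 and 4.11 in KO samples, again with all KO samples above the controls. The log2 difference was 0.90 (SE 0.08), and the mean FPKM was 8.45 in control and 16.6 in KO cells, or 196% of control. In MDA-MB-231 cells the log2 value was 4.75, 4.85 and 4.91 in control and 4.73, 4.73 and 4.58 in KO samples, so the KO samples lay below the controls by a small margin. The log2 difference was -0.15 (SE 0.07), with a limma adjusted p of 0.187.

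MEST encodes a protein with an alpha/beta hydrolase fold. Its log2 value in MDA-MB-468 was 4.24, 4.15 and 4.12 in control and 4.17, 4.19 and 4.30 in KO samples, which overlap, and the log2 difference was 0.05 (SE 0.06). In MDA-MB-231 cells it was 3.79, 3.67 and 3.87 in control and 4.30, 4.11 and 4.15 in KO samples, with all KO samples above the controls. The log2 difference was 0.41 (SE 0.08) and the limma adjusted p was 0.0331, but the difference was below the fold limit of 0.5 that a call required, and without any 1 of the 6 samples the adjusted p was between 0.0592 and 0.0955.

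PHLDA2 encodes a small protein with a pleckstrin homology domain that limits growth of the placenta. In MDA-MB-468 cells the log2 value was 5.81, 5.84 and 6.12 in control and 6.20, 5.97 and 6.13 in KO samples, which overlap, with a log2 difference of 0.18 (SE 0.11). In MDA-MB-231 cells it was 6.44, 6.21 and 6.26 in control and 5.62, 5.79 and 5.60 in KO samples, and all KO samples lay below the controls. PHLDA2 fell there, with a log2 difference of -0.63 (SE 0.08), a limma adjusted p of 0.0155 and a mean FPKM of 63.9% of control. The call was lost without KO replicate 1 (adjusted p = 0.0628) and without KO replicate 2 (adjusted p = 0.0523). Under a replicate block it was 0.083.

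GRB10 encodes an adaptor protein that binds the insulin and IGF1 receptors and dampens their signalling. In MDA-MB-468 cells the log2 value was 3.84, 3.66 and 3.82 in control and 3.40, 3.71 and 3.62 in KO samples, which overlap, with a log2 difference of -0.20 (SE 0.10). In MDA-MB-231 cells it was 4.49, 4.64 and 4.61 in control and 4.96, 4.89 and 4.80 in KO samples, with all KO samples above the controls. The log2 difference was 0.31 (SE 0.07) and the limma adjusted p was 0.045, again with a difference below the fold limit, and without any 1 of the 6 samples the adjusted p was between 0.0608 and 0.137.

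Side by side, 2 of the 5 genes had all KO samples above the controls in MDA-MB-468 cells and 3 overlapped. Of all genes, 17.5% had all KO samples above, and 31.0% had groups that did not overlap. Since PEG10 was chosen there, nothing is read from this count. In MDA-MB-231 cells none of the 5 overlapped, against 36.0% of all genes without overlap. All KO samples were above for 2 and below for 3, and over all genes for 16.6% and 19.4%. The call of adjusted p under 0.05 and a log2 difference over 0.5 was made for 1 of the 5, PHLDA2, against 3.70% of all genes (1.31% lower), and 3 of the 5 had an adjusted p under 0.05 whatever the fold, against 10.8%. Under the replicate block none of these 3 stayed under 0.05 (limma adjusted p = 0.0912 for MEST, 0.083 for PHLDA2 and 0.13 for GRB10). The members were chosen with earlier results of these data known, so nothing is read from these counts. The median log2 difference of the 5 was 0.18 in the comparison of MDA-MB-468 and -0.15 in that of MDA-MB-231, and that of all genes was 0.02 and -0.01.

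Subtracting the change of the MDA-MB-231 line from that of MDA-MB-468 gave 1.97 (SE 0.22) on the log2 scale for PEG10 and 1.06 (SE 0.12) for SGCE. It was 0.81 (SE 0.14) for PHLDA2, -0.36 (SE 0.11) for MEST and -0.50 (SE 0.13) for GRB10. These contrasts contain the comparison on which PEG10 was chosen and are given without a test, and over all genes 14.7% had an adjusted p under 0.05 for this difference.

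Control cells of the lines were compared next. The MDA-MB-468 controls are also an arm of the comparison on which PEG10 was chosen, so its values are given without a test. SGCE was lower in control MDA-MB-468 than in control MDA-MB-231 cells by a log2 difference of -1.60 (SE 0.08, limma adjusted p = 2.34e-09), and its mean FPKM of 8.45 was 30.7% of the 27.6 in MDA-MB-231 cells. GRB10 was lower by -0.80 (SE 0.09, adjusted p = 3.2e-06) and its FPKM was 55.5% of that in MDA-MB-231. PHLDA2 was lower by -0.38 (adjusted p = 0.00402) and MEST higher by 0.40 (adjusted p = 0.000362), both below the fold limit. PEG10 differed by -0.29 (SE 0.15), the values of the lines overlapping. The difference was -0.11 without control replicate 1 of MDA-MB-468, the lowest of the controls, and -0.41 without control replicate 2. Of the 4 genes other than PEG10, 2 were called, both lower, where 64.2% of all genes were called and 31.4% were called lower. An adjusted p under 0.05 was reached by all 4, against 84.8% of all genes. Their groups did not overlap, with 1 higher and 3 lower, against 85.5% of all genes, of which 43.2% were higher and 42.3% lower.

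In the order of the 4 groups, PEG10 was highest in KO MDA-MB-468, then control and KO MDA-MB-231, and the last of these overlapped with control MDA-MB-468. SGCE went from control MDA-MB-231 down through KO MDA-MB-231 and KO MDA-MB-468 to control MDA-MB-468, with no overlap between neighbours. SGCE in KO MDA-MB-468 cells therefore stayed below both MDA-MB-231 groups, whereas PEG10 there was above them. MEST was lowest in control MDA-MB-231, the other groups overlapping. PHLDA2 was lowest and GRB10 highest in KO MDA-MB-231 cells. Per length, PHLDA2 was the most abundant of the 5 in every group, with a mean FPKM between 50.0 and 78.2. PEG10 in KO MDA-MB-468 cells came near it, at 60.3 against 67.9.

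The levels of PEG10 and SGCE, whose starts are 192 bases apart, were also set against each other in each sample. The FPKM of PEG10 divided by that of SGCE was 1.84, 2.42 and 2.10 in control MDA-MB-468 samples and 3.04, 3.73 and 4.13 in KO samples. In MDA-MB-231 it was 0.808, 0.751 and 0.828 in control and 0.775, 0.701 and 0.718 in KO samples. The ratio was thus above 1 in every MDA-MB-468 sample and below 1 in every MDA-MB-231 sample. The MDA-MB-468 samples are those on which PEG10 was chosen, and their ratios are a description. Between KO and control MDA-MB-231 cells the ratio differed by -0.0645, with an exact permutation p of 0.2 (two-sided). The smallest p that 3 samples against 3 allow is 0.1, so this test cannot pass the threshold.

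**Figure D1:**
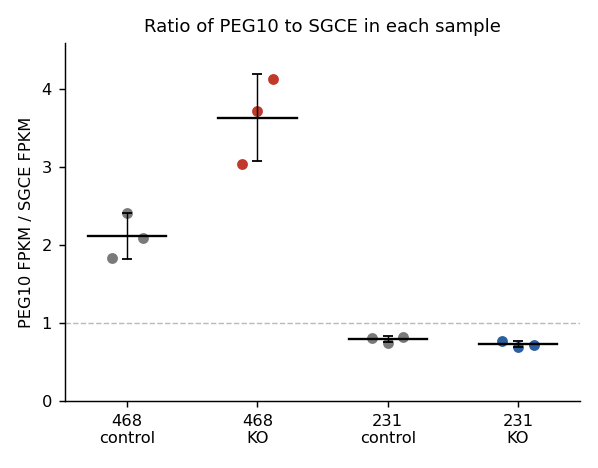
FPKM of PEG10 divided by FPKM of SGCE in each sample, with points for samples, horizontal lines for the mean of 3 and error bars for the SD; the dashed line is a ratio of 1. Mean ratios were 2.12 in control and 3.64 in KO MDA-MB-468, and 0.796 in control and 0.731 in KO MDA-MB-231 cells.

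Genes whose values ran most like those of PEG10 over the 12 samples were described by Pearson's correlation. The 12 samples are not independent, as 6 come from each line. On the log2 values the closest were DCAF15 (0.945), a ubiquitin ligase substrate receptor, UPP1 (0.936), a uridine phosphorylase, MIIP (0.933), PM20D2 (0.931) and SDHAF2 (0.93), an assembly factor of succinate dehydrogenase, and SGCE stood at 0.045. After each line was centred on its own mean, SGCE was the closest of 11526 genes at 0.982, then FSCN1 (0.979), an actin-bundling protein, STK39 (0.977), LEPREL1 (0.974) and SLC6A2 (0.972), the noradrenaline transporter. MEST, PHLDA2 and GRB10 stood at -0.005, 0.363 and -0.485 in the centred values. Most of the centred profile of PEG10 is the step between KO and control MDA-MB-468 cells on which it was chosen, so genes with a like step there rank high by construction, and nothing is read from the rank of SGCE.

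Genes close to the members in the genome were compared next, as imprinted genes often lie in clusters. Among the genes with a matched position, none between BET1, 651.9 kb to one side of the PEG10 start, and PON2, 779 kb to the other, was analysed apart from SGCE. In MDA-MB-468 cells BET1, a SNARE of transport from the endoplasmic reticulum, had a log2 difference of -0.25 (adjusted p = 0.12) and PON2, a paraoxonase, one of -0.43 (adjusted p = 0.131), neither of which passed the test. In MDA-MB-231 cells they were 0.06 and 0.13 (adjusted p = 0.572 and 0.138). The change of PON2 differed between the lines by -0.55 (limma interaction, adjusted p = 0.031), a call that was lost in 8 fits, without control replicate 1 or 3 or KO replicate 1 or 2 of MDA-MB-231 and without control replicate 1 or 2 or KO replicate 2 or 3 of MDA-MB-468.

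Within 1000 kb of the PEG10 start, 2 of the 4 other genes rose in KO MDA-MB-231 cells, TFPI2 and GNG11. In MDA-MB-468 cells limma called 0 of the 4, whose log2 differences ran in both directions, from -0.43 to 1.48 (median -0.015). All 4 had an unadjusted p under 0.05, and without the share of all genes nothing is read from this. TFPI2, a serine protease inhibitor that is imprinted in placenta, had log2 values of 5.10, 5.26 and 5.04 in control and 6.36, 6.43 and 6.20 in KO MDA-MB-231 cells, a log2 difference of 1.19 (SE 0.09, limma adjusted p = 0.00537). In MDA-MB-468 cells it was 2.39, 2.39 and 2.27 in control and 3.01, 3.95 and 4.51 in KO samples, a difference of 1.48 (SE 0.37, adjusted p = 0.0837). KO samples lay above the controls in both lines, and the difference between the lines was 0.28 (SE 0.38, adjusted p = 0.647). GNG11, a G protein subunit named after its values had been seen, had a log2 difference of 0.71 in MDA-MB-231 cells (limma adjusted p = 0.0331), a call that was lost under the replicate block (adjusted p = 0.0941) and without control replicate 2 or any 1 of the KO samples.

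The nearest genes of MEST were CEP41 and COPG2, 43.7 and 227.6 kb away between starts. COPG2, a coatomer subunit, had log2 differences of -0.11 in MDA-MB-468 cells and -0.10 in those of MDA-MB-231 (adjusted p = 0.274 and 0.48), and CEP41 -0.18 and -0.16 (adjusted p = 0.15 and 0.162). Those of PHLDA2 were SLC22A18 and NAP1L4, 29.7 and 63.0 kb away. SLC22A18, a transporter that is also imprinted, had a log2 difference of 0.62 (SE 0.23, adjusted p = 0.131) in MDA-MB-231 cells, where PHLDA2 fell, and of -0.11 in MDA-MB-468 cells. NAP1L4, a histone chaperone, had log2 differences of 0.03 in MDA-MB-468 cells and -0.13 in the other line. On the sides of GRB10 lay DDC, 228.1 kb away, and SEC61G, 3966.5 kb away, which had log2 differences of -0.16 and 0.22 in the lines (adjusted p = 0.292 and 0.194).

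DDC, the aromatic amino acid decarboxylase of dopamine and serotonin synthesis, fell in KO cells of MDA-MB-468. It stood at log2 values of 3.83, 4.16 and 4.07 in control and 3.18, 2.92 and 2.77 in KO samples, a log2 difference of -1.06 (SE 0.14, limma adjusted p = 0.0264). In MDA-MB-231 cells it was listed at 0 in the controls and at 0.07, 0 and 0 in KO samples. Under the replicate block the adjusted p was 0.0625, and the call was also lost without any 1 of the 3 control samples or without KO replicate 2 or 3. Over the 31 genes within 1000 kb of the 4 loci, 0 rose and 1 fell in MDA-MB-468 cells, where 2.14% of all genes were called, and 2 rose and 0 fell in MDA-MB-231 cells, where 3.70% were. An unadjusted p under 0.05 was reached by 15 of the 31 and by 11 of the 31. The share of all genes with such a p is not given here, so nothing is read from these counts.

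**Figure D2:**
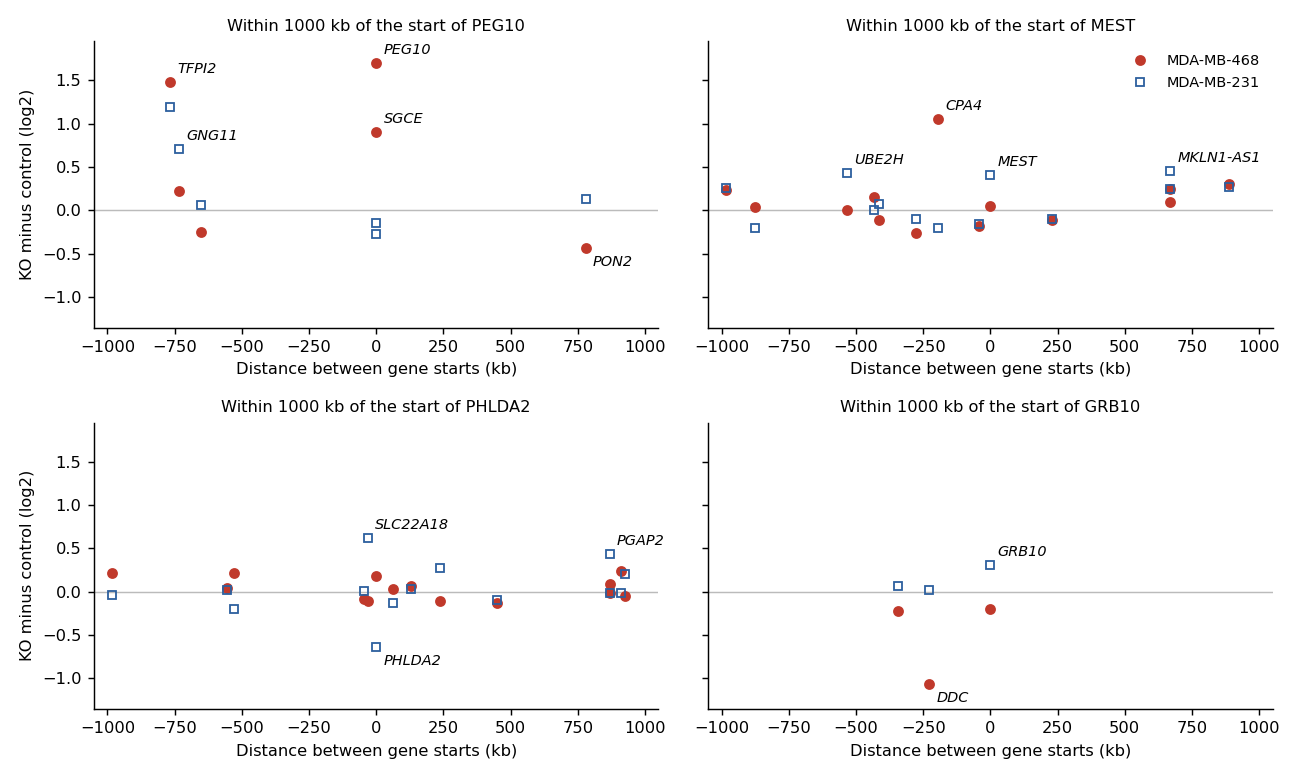
Log2 difference between KO and control cells of each analysed gene within 1000 kb of the start of PEG10, MEST, PHLDA2 or GRB10, against the distance between gene starts along the chromosome in kb; filled circles are MDA-MB-468 and open squares MDA-MB-231, and genes with a difference over 0.4 are named. PEG10 and SGCE stand at 1.70 and 0.90 in MDA-MB-468 cells beside neighbours between -0.43 and 1.48.

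Of 60 imprinted genes on the lists used, 55 were not members, and 22 of these were analysed. In MDA-MB-468 cells 1 of the 22, DDC, fell and 0 rose, and in MDA-MB-231 cells 2 rose, TFPI2 and NLRP2, and 0 fell. An unadjusted p under 0.05 was reached by 7 and by 11 of the 22, and without the share of all genes nothing is read from this. NLRP2, an NLR-family protein of oocytes and early embryos, had a log2 difference of 0.60 in the MDA-MB-231 line (SE 0.12, limma adjusted p = 0.0389) and of 0.18 in the other (adjusted p = 0.0838). The median over the 22 was -0.005 for the MDA-MB-468 comparison and 0.078 for that of MDA-MB-231, against 0.02 and -0.01 over all genes. Under the replicate block neither TFPI2 nor NLRP2 was called in MDA-MB-231 (adjusted p = 0.052 and 0.097), and the call of NLRP2 was also lost without control replicate 1 or 3 or any 1 of the KO samples.

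By parental copy, 5 other genes expressed from the paternal copy were analysed, PLAGL1, MKRN3, L3MBTL1, FAM50B and ZNF331, and limma called 0 of 5 in either line, with an unadjusted p under 0.05 for 0 in MDA-MB-468 and for 3 in the other line. Their log2 differences ran from -0.37 to 0.16 in MDA-MB-468 cells. PLAGL1 was near 0 in MDA-MB-231 cells (log2 values of 0 to 0.1), so no fall could be seen there. Of 8 others expressed from the maternal copy, 0 were called in MDA-MB-468 cells, where 3 had an unadjusted p under 0.05, and 1, TFPI2, was called in the other line. CPA4, a carboxypeptidase near MEST, had a log2 difference of 1.06 in MDA-MB-468 cells (adjusted p = 0.0624) and of -0.20 in the other line (adjusted p = 0.553), and its change differed between the lines by 1.26 (limma interaction, adjusted p = 0.0213). CPA4 was singled out after its values had been seen. Between control cells of the lines, 11 of the 22 were called higher and 6 called lower in MDA-MB-468, against 64.2% of all genes called, with log2 differences from -3.89 for RB1, a tumor suppressor, to 4.02 for DDC.

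**Figure D3:**
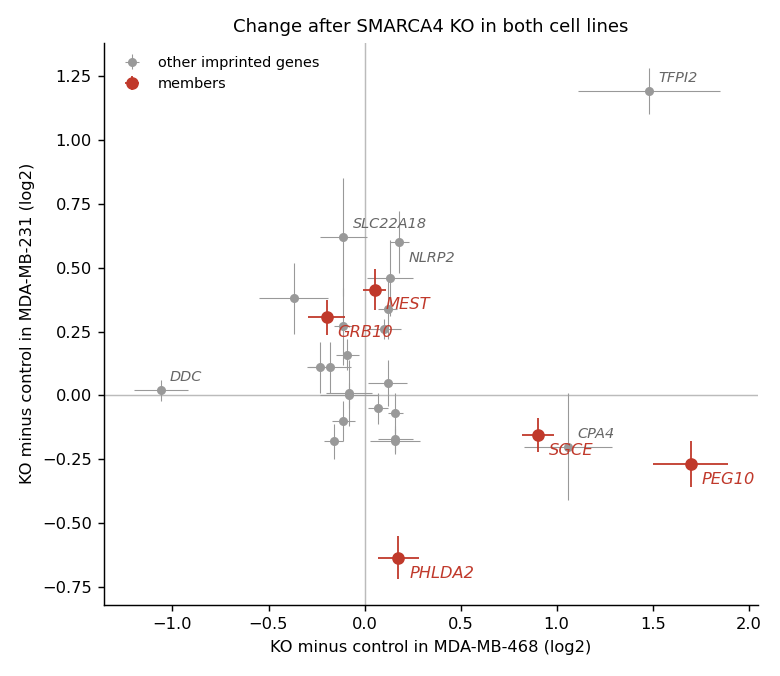
Log2 difference between KO and control cells in MDA-MB-468 (x axis) and MDA-MB-231 (y axis) for the 5 members (red) and 22 other imprinted genes (grey), with error bars for the standard error. PEG10 lies at 1.70 and -0.27, SGCE at 0.90 and -0.15 and PHLDA2 at 0.18 and -0.63, and DDC stands apart at -1.06 and 0.02.

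Genes of the families and pathways of the members were counted as well, beside 2.14% of all genes called in the MDA-MB-468 comparison and 3.70% in that of the other line. Of 12 other genes derived from retrotransposon gag sequences, as PEG10 is, 1 rose in MDA-MB-231 cells, PNMA2 (log2 difference 0.88, SE 0.15, limma adjusted p = 0.0273), and 0 were called in MDA-MB-468 cells, where 4 had an unadjusted p under 0.05 and PNMA2 had a log2 difference of 0.17. LDOC1 and CCDC8 were at 0 in all MDA-MB-468 samples and RGAG4 at 0 to 0.01, so no fall could be seen there. Of 8 other genes of the dystrophin-glycoprotein complex, to which SGCE belongs, 0 were called in either line, with an unadjusted p under 0.05 for 3 in MDA-MB-468 and 2 in the other line. The call of PNMA2 was lost under the replicate block and without control replicate 2 or 3 or any 1 of the KO samples. PHLDA1 and PHLDA3, relatives of PHLDA2, and 5 hydrolase genes related to MEST gave 0 calls in either line, and of the hydrolase genes 4 and 3 had an unadjusted p under 0.05. Of 12 genes of DNA methylation and imprint maintenance, such as DNMT1 and UHRF1, 0 were called in either line, with log2 differences from -0.15 to 0.24 in MDA-MB-468 cells and from -0.26 to 0.30 in the other line, and with an unadjusted p under 0.05 for 0 and 4 of them. For the difference of the KO change between the lines, 8 of the 39 genes of these 5 lists had an adjusted p under 0.05 (20.5%), against 14.7% of all genes.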

How the data were processed

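RNA of 12 samples was sequenced by the authors with a TruSeq Stranded mRNA kit. Reads were trimmed (Trimmomatic), mapped to hg19 (STAR) and summarised per gene as FPKM (RSEM), and the authors removed genes with an average or SD of FPKM under 1. The deposited values are log2(FPKM + 1) of 11529 genes. Genes that varied little are therefore absent, FPKM depends on the other transcripts of a sample, and the read depth, and so the precision of each value, is unknown.

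KO and control cells were compared within each line with lmFit and trendless eBayes of limma (version 3.58.1, R 4.3.3), and the control lines and the difference between the KO changes by contrasts of 1 fit of all 12 samples in 4 groups. A call was a Benjamini-Hochberg adjusted p over all genes under 0.05 with an absolute log2 difference over 0.5, and for the difference between lines an adjusted p under 0.05. Counts of genes with an unadjusted p under 0.05 are given without the share of all genes, and no excess is read from them. Scripts were tested on simulated data. Deviations of same-numbered samples (numbers from the titles) had correlations of 0.254, 0.161 and 0.119 in MDA-MB-468 and of -0.054, 0.074 and -0.115 in MDA-MB-231 cells. Those of differently numbered samples ran from -0.232 to 0.131 and from -0.188 to 0.221. These ranges overlap, so whether the numbers pair the samples is not known in either line.

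Positions came from GENCODE release 44 on GRCh37, matched by current symbol for 10144 and older symbol for 690 of 11528 symbols, and promoters from RefSeq. Named were SMARCA4, the members, nearest genes and at most 6 called genes of each list other than the marker lists. By each of 2 measures, the 5 genes most like PEG10 were also named. GNG11, CPA4, RB1, CDH1, CD14, LDOC1, CCDC8, RGAG4, CAV1, VIM, ZEB1, AXL and FN1 were named after their values had been seen. Members and lists were chosen with earlier results of these data known. Alternatives were other pseudocounts, filters, scalings, fits, blocks and left-out samples. The list of insulin and IGF receptor signalling genes is not reported here.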

Additional observations from a re-analysis of the deposited data

Results flagged for a closer look

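KO samples lay on opposite sides of the controls in the 2 lines for PEG10 and SGCE, with every KO sample above the controls in MDA-MB-468 and below them in MDA-MB-231 cells. Of all genes, 17.5% had all KO samples above in MDA-MB-468 and 19.4% had all below in MDA-MB-231 cells. The share with both is not given here, and PEG10 was chosen on the MDA-MB-468 comparison, so nothing is read from these shares. In MDA-MB-231 cells neither difference passed the test (limma adjusted p = 0.108 for PEG10 and 0.187 for SGCE). The margin of SGCE there was small, at 4.732 against 4.745 for the closest samples. Subtracting the change of MDA-MB-231 from that of the MDA-MB-468 line gave 1.97 for PEG10 and 1.06 for SGCE on the log2 scale, and the difference was not tested, since PEG10 was chosen for its change in MDA-MB-468 cells.

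By the limma interaction contrast, which 14.7% of all genes passed, the change also differed between the lines for the following genes that are not members. PNMA2 was named for its call in MDA-MB-231 cells, and CPA4, CDH1 and CD14 after their values had been seen. Their p-values are therefore not free of that choice. Named genes that did not pass include TFPI2, NLRP2, GNG11 and SLC22A18 (adjusted p = 0.647, 0.0628, 0.0502 and 0.0813). The difference on the log2 scale was -1.09 for DDC (adjusted p = 0.00116), -0.70 for PNMA2 (adjusted p = 0.0182) and -0.55 for PON2 (adjusted p = 0.031). DDC is listed at or near 0 in every MDA-MB-231 sample. PNMA2 was near 0 in MDA-MB-468 cells, and its difference was not called with a pseudocount of 0.1 (adjusted p = 0.514, the highest of 17 alternatives) or under the replicate block (adjusted p = 0.0527). It was 1.26 for CPA4 (adjusted p = 0.0213), which was not called without control replicate 1 or KO replicate 2 of MDA-MB-468 or KO replicate 2 of MDA-MB-231 (highest adjusted p 0.0551). It was -0.76 for CDH1 (adjusted p = 0.0137), called in all 18 alternatives, where it ran from -1.64 to -0.64. CDH1 was near the floor in MDA-MB-231 cells, at log2 values of 0.16 to 0.50 in control and 0.70 to 1.01 in KO samples. For CD14 the difference was -1.75 (adjusted p = 0.0257) and for SMARCA4 0.41 (adjusted p = 0.027). Both were called in 12 of 18 alternatives, and not without control replicate 1 or 2 or KO replicate 2 of MDA-MB-468 or KO replicate 1 of MDA-MB-231, nor, for CD14, without control replicate 1 or KO replicate 2 of MDA-MB-231, nor, for SMARCA4, without control replicate 2 of MDA-MB-231 or KO replicate 3 of MDA-MB-468.

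Of the genes picked for running like PEG10, the difference was 0.59 for DCAF15, 0.86 for UPP1, 0.62 for MIIP, 1.04 for PM20D2, 2.18 for FSCN1, 0.92 for STK39, 1.45 for LEPREL1 and 0.74 for SLC6A2. The likeness by which they were picked includes this difference, so the values are a description and no p is given.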

How the results depend on the processing

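Of 113 tested values of the members under alternatives (MDA-MB-231 KO and, without PEG10, control lines), 110 kept their direction and their call or lack of a call, and 3 were weaker. The other 172, which have no test, kept their direction and moved by less than the SD between replicates. The 3 were PHLDA2 in MDA-MB-231 cells, at -0.635 with an adjusted p of 0.083 with the replicate number as a block, and at -0.612 and -0.694 without KO replicate 1 or 2, and over the left-out samples it ran from -0.694 to -0.568. In MDA-MB-468 cells PEG10 ran from 1.52 to 1.83 and SGCE from 0.82 to 0.97. MEST and GRB10 in MDA-MB-231 cells stayed without a call, being below the fold limit, but their adjusted p under 0.05 did not hold. Under the replicate block it was 0.0912 for MEST and 0.13 for GRB10, and for GRB10 it was 0.0528 with a pseudocount of 0.1. Without any 1 of the 6 samples it was above 0.05 for both.

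Counts moved more. In MDA-MB-468 cells 247 genes were called, with 241 under the replicate block, 537 in 1 fit of all samples, 0 with the p number of the descriptions as replicate block (582 past the fold limit at an unadjusted p under 0.05), and 0 to 474 without 1 sample (0 without control replicate 2 or KO replicate 2, with 616 and 540 genes past the fold limit at an unadjusted p under 0.05, and 474 without KO replicate 1). Other imprinted genes called there were 1, with 3 in 1 fit, 0 under the p number block and 0 to 3 without 1 sample. In the p number block, the control and the KO sample whose p number had no partner were put together. In MDA-MB-231 cells 426 genes were called, with 0 under the replicate block (576 past the fold limit at an unadjusted p under 0.05) and 99 to 311 without 1 sample, and other imprinted genes were 2, 0 and 1 to 2. Control and KO samples of MDA-MB-231 share the number used as a block, but whether it pairs them is not known. For the difference between the lines, 1699 genes were called and 924 to 1897 without 1 sample, and other imprinted genes were 2, with 4 under 75th percentile scaling, 4 under quantile normalization, 5 under the replicate block and 1 to 4 without 1 sample. The cause was not tested. No scaling moved the median of all genes by 0.1. Depth is unknown, so no limit from counts can be given.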
